A study of Mus musculus with 6 samples.

Results

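The RNA exosome was examined through its 10 subunit genes, Exosc1 to Exosc10, in CH12F3-2A cells, a mouse B cell lymphoma line that can be made to switch its antibody class. The members were listed by name, and a probe belonged to a member if the array annotation gave that gene's symbol or an older name of it. Probes were named for 9 of the 10 members, 1 probe each, among 16390 named genes on the array; Exosc6 was not analysed here. Cells received an siRNA against Spt6 (siSpt6, 3 samples) or a control siRNA (siControl, 3 samples) by AMAXA electroporation. All 6 samples were stimulated with CIT (CD40 ligand, IL-4 and TGF-beta) 24 h later and cultured for another 24 h, so the comparison holds no unstimulated cells. Spt6 is a histone chaperone that binds RNA polymerase II during elongation, and the study addressed its part in choosing the targets of AID, the deaminase that starts class switching. Each RNA was labelled with Cy5 and hybridised alone to an array, read as an intensity in arbitrary units. The labels do not say whether samples of a group were separate cultures, so a p-value here reflects the variation among these arrays alone, which could be purely technical, and 3 arrays per group limit the precision. The siSpt6 and siControl samples were registered in separate number ranges. A difference in processing that went with these ranges could not be told apart from the siRNA.

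The exosome degrades or trims RNA from the 3′ end. Its core is a ring of subunits related to the bacterial nuclease RNase PH, closed on top by a cap of RNA-binding subunits, and in mammals the core itself is catalytically inactive. Cutting is done by nucleases that attach to it, Exosc10 and Dis3 in the nucleus and Dis3l in the cytoplasm, and helicases and adaptor proteins bring the substrates. In the nucleus it matures ribosomal RNA and removes promoter upstream transcripts, and in B cells it is known as a partner of AID at transcribed switch regions.

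The B cell markers were present: 7 were measured, and their summed intensity was 19556 to 20797 on siSpt6 arrays and 15156 to 18058 on siControl arrays. Cd79b, the brightest, rose 1.46-fold (limma adjusted p = 0.0391) and Cd22 fell 1.54-fold (limma adjusted p = 0.0281). Most of the difference in the sums came from Cd79b, with means of 8455 in siSpt6 and 5787 in siControl. The other 5 B cell markers did not pass the test, and the median log2 difference of the 7 was 0.09. The 5 measured T cell markers summed to 43.4 to 49.8 on siSpt6 arrays and 41.1 to 59.5 on siControl arrays, and none passed the test (limma, 0 at an unadjusted p under 0.05). The 4 measured plasma cell markers summed to 1764 to 2021 on siSpt6 arrays and 2166 to 2394 on siControl arrays, nearly all of it from Xbp1 and Irf4. Xbp1 fell 1.38-fold (limma adjusted p = 0.0481). The others did not pass the test and had log2 differences above 0 (Irf4 0.05, Prdm1 0.21 and Sdc1 0.37). Prdm1 read at most 11.1 and Sdc1 at most 2.81 on any array. Of 5 myeloid markers Fcgr3 rose 2.34-fold (limma adjusted p = 0.00150) and carried nearly all of their summed level, 151 to 169.7 on siSpt6 arrays against 72.5 to 76.7 on siControl arrays. The myeloid markers Cd14, Itgam and Mpo read at most 3.87 on any array. The part of these marker differences in the exosome results was not tested. The siRNA's target Supt6 read 25.1, 21.8 and 28.1 on siSpt6 arrays and 33.1, 32.1 and 32.1 on siControl arrays. The groups did not overlap, but the log2 difference of -0.38 (SE 0.13) missed the threshold (limma adjusted p = 0.0973). Throughout, siSpt6 therefore names the siRNA given, not a measured depth of knockdown.

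Several exosome subunits were lower in siSpt6 cells, how many depending on how the arrays were normalized. Of the 9 measured, 6 fell (Exosc1, Exosc2, Exosc4, Exosc5, Exosc7 and Exosc8), 0 rose, and 3 did not pass the test (Exosc3, Exosc9 and Exosc10). After quantile or cyclic loess normalization 4 of the 9 were called lower, without Exosc4 and Exosc8. A call is a limma adjusted p under 0.05, with Benjamini-Hochberg adjustment over all 21584 tested probes. By the same rule 9.65% of 15224 genes were lower and 7.4% were higher. At an unadjusted p under 0.05 the limma count was 7 lower and 0 higher, against 17.4% of all genes lower and 13.9% higher at that threshold. The median log2 difference was -0.66 over the 9 subunits, against 0.00 over all genes. In 7 of the 9 every siSpt6 array read below every siControl array, which was so for 21.6% of 14405 genes with a value on all 6 arrays. The subunit probes were fairly bright, with mean log2 levels from 7.07 (Exosc1) to 10.58 (Exosc8), and among the 4135 genes in that range 18.2% were called lower, with a median log2 difference of -0.11. In RNA from a whole culture, less RNA per cell and fewer cells that carry it cannot be told apart.

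**Figure D1:**
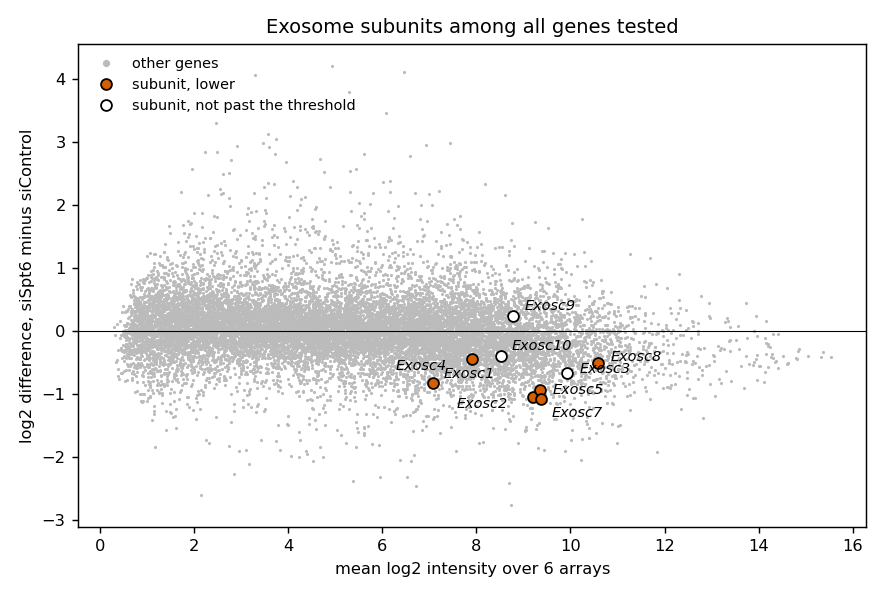
Mean log2 intensity over 6 arrays (x axis) against the log2 difference, siSpt6 minus siControl (y axis), for 15224 genes (grey), with the 9 exosome subunits circled and filled where they were called lower. Exosc2, Exosc5 and Exosc7 lie together near a difference of -1, and Exosc9 is the only subunit above 0, at 0.24.

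**Figure D2:**
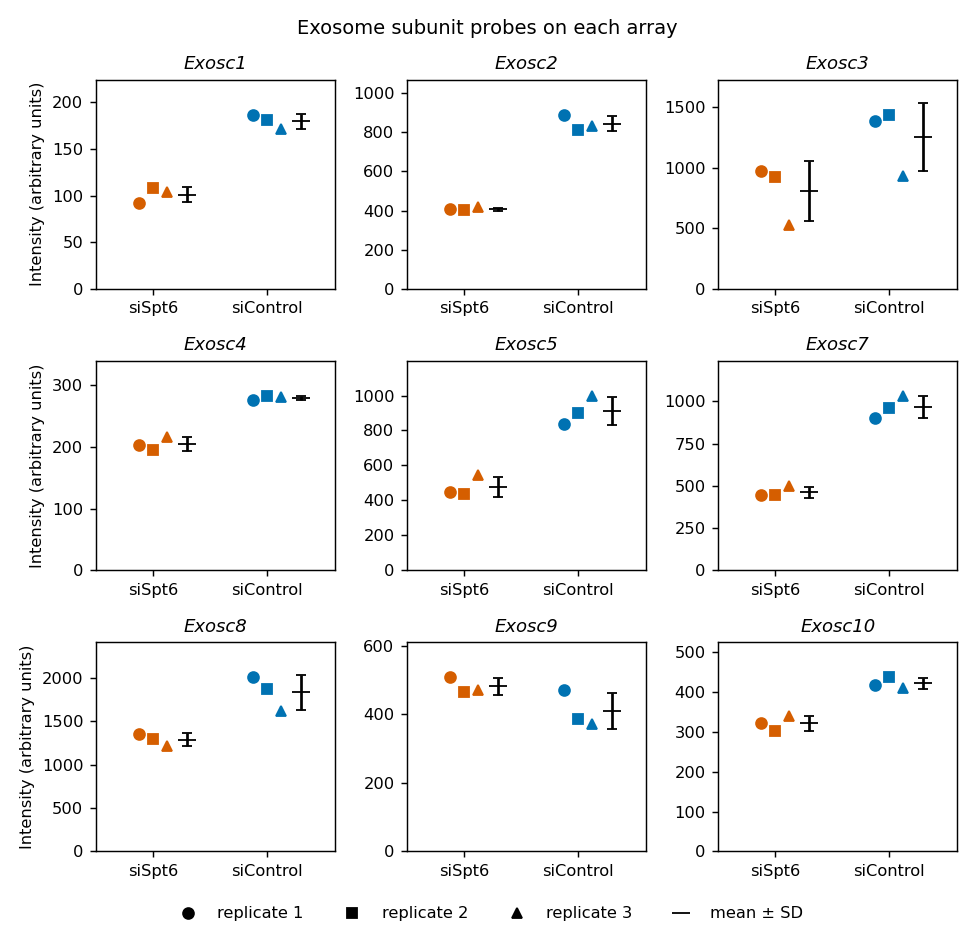
Intensity in arbitrary units of each exosome subunit on the 3 siSpt6 arrays (orange) and the 3 siControl arrays (blue), with the mean ± SD beside each group (n = 3). The groups overlap for Exosc3 and Exosc9 and are apart for the other 7 subunits.

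The promoters of Exosc1, Exosc2, Exosc5 and Exosc7 are shown because these 4 were called lower under each of the 14 other processing choices tried. Not every choice was a separate check, since several could not change a log2 difference. The sequences are RefSeq's for GRCm38.p6 and run 5′ to 3′ on the gene's strand, from 250 bases before to 50 after the annotated start. They lie at chr19:41933265-41933564 (Exosc1, minus strand), chr2:31670465-31670764 (Exosc2, plus strand), chr7:25658903-25659202 (Exosc5, plus strand) and chr9:123112981-123113280 (Exosc7, plus strand). Capitals mark matches, on either strand, to the promoter elements searched for.
Exosc1: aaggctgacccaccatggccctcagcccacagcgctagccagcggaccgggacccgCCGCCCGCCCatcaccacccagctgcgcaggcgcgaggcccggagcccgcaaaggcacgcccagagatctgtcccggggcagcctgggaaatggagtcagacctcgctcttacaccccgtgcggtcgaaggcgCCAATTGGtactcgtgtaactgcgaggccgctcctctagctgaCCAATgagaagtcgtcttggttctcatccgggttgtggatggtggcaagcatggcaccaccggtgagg
Exosc2: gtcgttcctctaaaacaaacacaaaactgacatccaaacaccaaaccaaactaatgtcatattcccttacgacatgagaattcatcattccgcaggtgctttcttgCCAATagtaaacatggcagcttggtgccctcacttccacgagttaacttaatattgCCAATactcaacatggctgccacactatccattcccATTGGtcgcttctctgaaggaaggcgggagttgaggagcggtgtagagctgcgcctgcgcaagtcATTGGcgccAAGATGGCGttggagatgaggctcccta
Exosc5: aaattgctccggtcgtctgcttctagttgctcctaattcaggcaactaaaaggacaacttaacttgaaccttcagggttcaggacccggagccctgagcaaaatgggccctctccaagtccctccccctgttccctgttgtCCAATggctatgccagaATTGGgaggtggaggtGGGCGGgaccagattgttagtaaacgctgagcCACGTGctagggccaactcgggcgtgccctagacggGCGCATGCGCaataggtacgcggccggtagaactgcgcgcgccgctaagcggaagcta
Exosc7: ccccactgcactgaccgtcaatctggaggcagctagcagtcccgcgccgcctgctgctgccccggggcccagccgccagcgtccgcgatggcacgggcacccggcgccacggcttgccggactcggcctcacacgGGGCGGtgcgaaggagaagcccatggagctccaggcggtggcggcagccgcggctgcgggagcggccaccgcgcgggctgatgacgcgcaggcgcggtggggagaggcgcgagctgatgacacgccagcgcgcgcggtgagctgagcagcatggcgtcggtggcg

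The windows differed in composition: G and C made up 48.0% of the Exosc2 window, 57.3% of Exosc5, 65.7% of Exosc1 and 75.3% of Exosc7. The elements searched were the GC box (GGGCGG), the CCAAT box (CCAAT), the E-box bound by Myc and USF proteins (CACGTG), an ETS element (CCGGAAG), a YY1 element (AAGATGGCG), an NRF1 element (GCATGCGC), the cyclic AMP response element (TGACGTCA) and the TATA box (TATAAA). In all, 8 subunit genes had a window in the table (Exosc10 had 2 overlapping ones, and Exosc6, not analysed on the arrays here, had 1), while Exosc4 and Exosc9 had none. Matches overlapped each other at the GC boxes and at 1 pair of CCAAT boxes of Exosc1. A GC box was found in 6 of these 8 genes, and in 35.7% of all 32851 windows. A CCAAT box was found in 3 of the 8, Exosc1, Exosc2 and Exosc5, and in 37.4% of all windows. Exosc5 held the only E-box among them, at position -44 from the start (7.15% of all windows hold it), and an NRF1 element read on both strands as overlapping matches, which Exosc10 also held once (2.71% of all windows). Exosc2 held the only YY1 element, at position 23 from the start (1.4% of all windows). ETS elements were found in Exosc3 and Exosc10 (8.86% of all windows). No cyclic AMP response element or TATA box was found in the 9 windows, against 1.79% and 13.6% of all windows. No element was thus found in all 4 of the printed windows, and a match to these letters is a description of the sequence, not a measured binding site.

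The cap is formed by Exosc1, Exosc2 and Exosc3, which carry S1 and, in Exosc2 and Exosc3, KH RNA-binding domains and line the entry to the central channel. Exosc2 read 406, 401 and 416 on siSpt6 arrays and 891, 813 and 832 on siControl arrays. It fell 2.07-fold, a log2 difference of -1.05 (SE 0.11, limma adjusted p = 0.00204), and its siSpt6 arrays lay close together (408 ± 7.71, SD, n = 3). Only 1.74% of the genes tested had a lower log2 difference. Exosc1, the counterpart of yeast Csl4, read 91.7, 108 and 104 on siSpt6 arrays, against 187, 181 and 171 on siControl arrays. All 3 siSpt6 values lay well below the controls, a 1.78-fold fall (log2 difference -0.83, SE 0.12, limma adjusted p = 0.00592).

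Exosc3, the counterpart of yeast Rrp40 and a gene mutated in a human form of pontocerebellar hypoplasia, was the least even subunit. It read 974, 924 and 525 on siSpt6 arrays and 1388, 1438 and 929 on siControl arrays. Replicate 3 was the lowest array in each group, and the groups overlapped only narrowly, the highest siSpt6 value lying above the lowest siControl value. The log2 difference of -0.66 (95% interval -1.33 to 0.02) did not pass the test (limma adjusted p = 0.175). The means were 808 ± 246 in siSpt6 and 1252 ± 280.3 in siControl (SD, n = 3 each), so the interval spans differences larger than that of Exosc2 as well as none. The log2 difference of Exosc3 was -0.37 without siSpt6 replicate 3 and -0.86 without siControl replicate 3.

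The ring is built from heterodimers, Exosc4 with Exosc9, Exosc5 with Exosc8 and Exosc6 with Exosc7. Of the 5 ring subunits measured 4 fell, against 9.65% of all genes and 18.2% of genes in the subunits' range of level. Their median log2 difference was -0.50. The calls of Exosc4 and Exosc8 among them were lost after quantile or cyclic loess normalization. Exosc7, the counterpart of yeast Rrp42, read 443, 443 and 496 on siSpt6 arrays, against 904, 959 and 1032 on siControl arrays. It fell 2.10-fold, about as far as Exosc2 (log2 difference -1.07, SE 0.12, limma adjusted p = 0.00253), and its ring partner Exosc6 was not analysed here.

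Exosc5, the counterpart of yeast Rrp46, read 448, 436 and 545 on siSpt6 arrays and 835, 899 and 998 on siControl arrays. It fell 1.92-fold (log2 difference -0.94, SE 0.14, limma adjusted p = 0.00675), with a wide gap between the groups. Its partner Exosc8, the counterpart of yeast Rrp43, read 1355, 1301 and 1211 on siSpt6 arrays, against 2008, 1869 and 1619.6 on siControl arrays. Exosc8 fell 1.42-fold (log2 difference -0.50, SE 0.13, limma adjusted p = 0.0415), but this call was lost after quantile normalization (log2 difference -0.23, limma adjusted p = 0.299), after cyclic loess (-0.27, limma adjusted p = 0.212) and without any 1 of 5 arrays, all but siControl replicate 3 (limma adjusted p up to 0.119).

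Exosc4, the counterpart of yeast Rrp41, read 204, 195 and 217 on siSpt6 arrays and 276, 283 and 281 on siControl arrays. The groups were apart by a small margin, a 1.37-fold fall (log2 difference -0.45, SE 0.11, limma adjusted p = 0.0344). The call of Exosc4 ended when any single array was left out (limma adjusted p between 0.0522 and 0.0983) and after quantile and cyclic loess normalization (limma adjusted p = 0.0592 and 0.0555). Its partner Exosc9, known in humans as an autoantigen in polymyositis with scleroderma, had a difference above 0. It read 508, 465 and 469.9 on siSpt6 arrays, against 471, 386 and 373 on siControl arrays, so the groups overlapped. Its log2 difference of 0.24 (95% interval -0.08 to 0.55) did not pass the test (limma adjusted p = 0.293), and 73.3% of genes had a lower one.

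Because a single scale factor of an array cancels in a ratio of its probes, ring partners were also compared within arrays. Quantile and cyclic loess normalization depend on the level of a probe and do not cancel. The level of such a ratio has no meaning between different probes, and only its change between groups was read. The log2 ratio of Exosc4 over Exosc9 was -1.32, -1.26 and -1.11 on siSpt6 arrays and -0.77, -0.45 and -0.41 on siControl arrays. The groups were apart, by -0.69 (exact two-sided permutation p = 0.1, 0.15 adjusted over 3 ratios), and 0.1 is the smallest p that 3 arrays against 3 allow. The 3 ratios include Dis3 over Dis3l, which was not planned and was chosen after its values were seen. Its p was fixed beforehand. Counting it made the adjusted p of Exosc4 over Exosc9 smaller than the ring partner ratios alone would give. The ratio of Exosc5 over Exosc8 was -1.60, -1.58 and -1.15 on siSpt6 arrays, against -1.27, -1.06 and -0.70 on siControl arrays. Here the groups overlapped, with a difference of -0.44 (exact two-sided permutation p = 0.2, also 0.2 after adjustment, in a test that cannot go below 0.1). Leaving out 1 array gave -0.58 to -0.28, and the value nearest 0 was without siControl replicate 3. After quantile and cyclic loess normalization the difference was -0.76 and -0.74 for Exosc4 over Exosc9. For Exosc5 over Exosc8 it was -0.52 and -0.5.

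**Figure D3:**
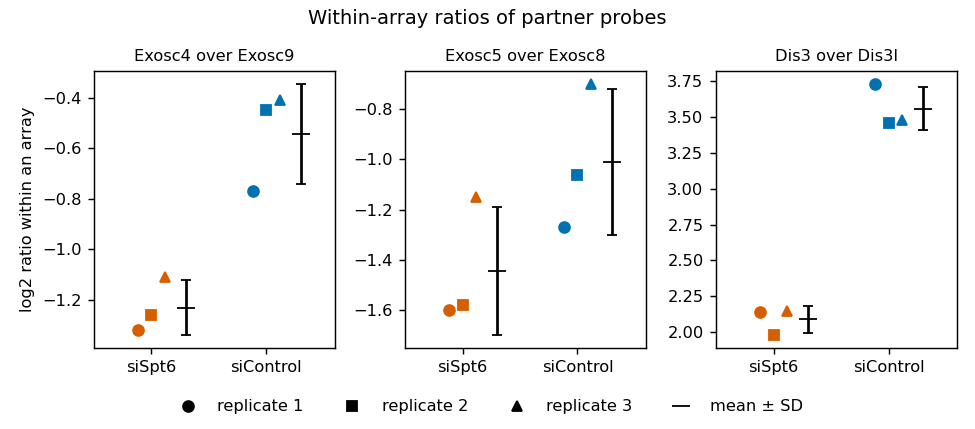
Log2 ratio of a pair of probes within an array (y axis) on the 3 siSpt6 arrays (orange) and the 3 siControl arrays (blue), with the mean ± SD beside each group (n = 3). The groups are apart for Exosc4 over Exosc9 and for Dis3 over Dis3l, and overlap for Exosc5 over Exosc8.

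Exosc10, the counterpart of yeast Rrp6, is the nuclease of the list and is concentrated in the nucleolus. It read 321, 303 and 339 on siSpt6 arrays and 418, 437 and 411 on siControl arrays. Every siSpt6 array read below every siControl array, but the log2 difference of -0.39 (SE 0.11) narrowly missed the threshold (limma adjusted p = 0.0542). It passed under 4 of 14 other choices, among them when only probes with a value on all arrays were tested (limma adjusted p = 0.0471).

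The catalytic subunits outside the list had differences of opposite sign. Dis3, the nuclear exonuclease and endonuclease of the exosome, listed under an older clone name, read 300.3, 273 and 357 on siSpt6 arrays and 705, 598 and 649.7 on siControl arrays. It fell 2.11-fold (log2 difference -1.08, SE 0.14, limma adjusted p = 0.00461), close in size to the falls of Exosc2 and Exosc7. Dis3l, its cytoplasmic relative, read 68.1, 69.0 and 80.6 on siSpt6 arrays, against 53.1, 54.2 and 58.0 on siControl arrays. All 3 siSpt6 values of Dis3l lay above the controls, with a log2 difference of 0.39 (SE 0.12) that missed the threshold (limma adjusted p = 0.0736) and passed it after quantile normalization (0.43, limma adjusted p = 0.0488). Dis3l2, which degrades uridylated RNA without the exosome, read 529, 372 and 409.9 on siSpt6 arrays and 408, 326 and 359 on siControl arrays, overlapping groups with a log2 difference of 0.25 (limma adjusted p = 0.381). The within-array log2 ratio of Dis3 over Dis3l, chosen after the values of both were seen, was 2.14, 1.98 and 2.15 on siSpt6 arrays and 3.73, 3.46 and 3.48 on siControl arrays. The ratio differed by -1.47 (exact two-sided permutation p = 0.1, the smallest possible, and 0.15 adjusted over 3 ratios). Dis3 already lay below and Dis3l above on every siSpt6 array, so the groups of the ratio had to be apart. This p was thus fixed beforehand and tests nothing further.

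**Figure D4:**
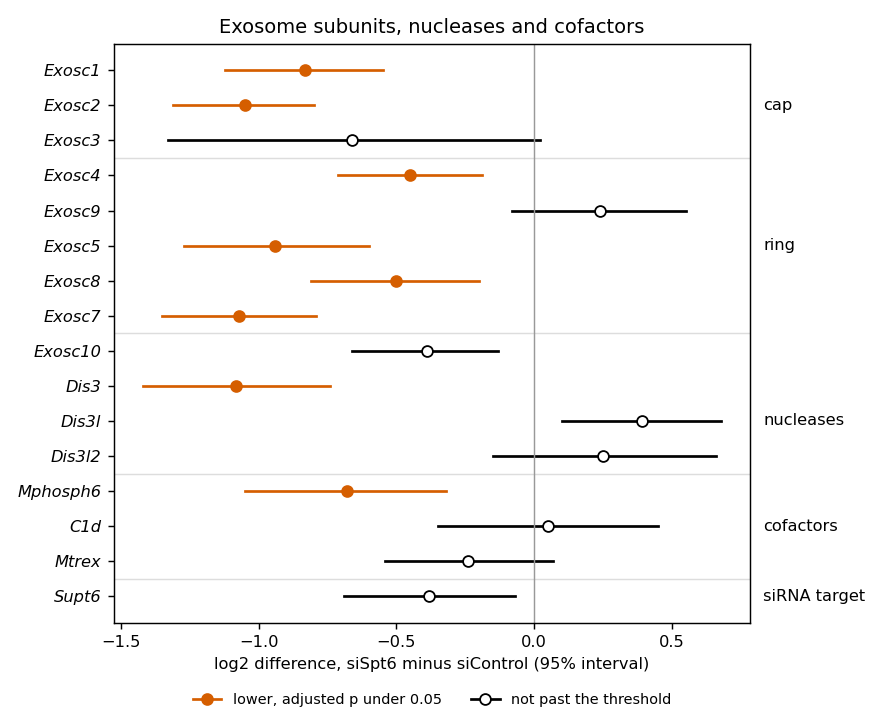
Log2 difference, siSpt6 minus siControl (x axis), with its 95% interval for the exosome subunits, the nucleases, 3 nuclear cofactors and the siRNA target, ordered by role (y axis). Filled orange points were called lower. Exosc2, Exosc7 and Dis3 lie at or below -1.05, and the intervals of Exosc3, Exosc9, Dis3l2, C1d and Mtrex include 0.

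Among the cofactors that bring RNA to the exosome, Mphosph6 and Wdr61 passed the test. With the 3 nucleases included, 21 of 24 listed genes were measured. Of these 21, 3 fell (Dis3, Mphosph6 and Wdr61) and 0 rose, against 9.65% lower and 7.4% higher over all genes. The median log2 difference of the 21 was -0.10. At an unadjusted p under 0.05 limma gave 6 lower and 2 higher of these 21 (17.4% and 13.9% of all genes). Mphosph6, the counterpart of yeast Mpp6, links the helicase Mtrex to the nuclear exosome core. It read 351, 319 and 308 on siSpt6 arrays, against 607, 539 and 439 on siControl arrays. Mphosph6 fell 1.61-fold (log2 difference -0.68, SE 0.15, limma adjusted p = 0.0257), a call lost without any 1 of 5 arrays, all but siControl replicate 3 (limma adjusted p at most 0.0778). It also missed the threshold with quantile and cyclic loess values (limma adjusted p = 0.0661 and 0.0528).

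Mtrex, the helicase that unwinds nuclear substrates, read 552, 488 and 559 on siSpt6 arrays and 594, 590.5 and 701 on siControl arrays. Its groups did not overlap, and its log2 difference of -0.24 (95% interval -0.54 to 0.07) did not pass the test (limma adjusted p = 0.279). C1d, the counterpart of yeast Rrp47 and a partner of Exosc10, read 376, 298 and 299 on siSpt6 arrays, against 322, 360.2 and 259.5 on siControl arrays. The C1d groups overlapped throughout, with a log2 difference of 0.05 (95% interval -0.35 to 0.45, limma adjusted p = 0.881). In the cytoplasm the Ski complex feeds messenger RNA to the exosome. Of 3 measured genes listed as Ski cofactors (Skiv2l, Wdr61 and Hbs1l) 1 fell, against 9.65% of all genes. Wdr61, which also sits in the PAF elongation complex, fell 1.41-fold, reading 1998, 1681 and 1729 on siSpt6 arrays against 2809, 2444 and 2359.9 on siControl arrays (limma adjusted p = 0.0470). Quantile normalization ended the call of Wdr61 (log2 difference -0.20, limma adjusted p = 0.372), and so did leaving out any single array (limma adjusted p at most 0.132).

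Other routes of RNA decay were set beside the exosome. Of 14 measured genes of decapping and decay from the 5′ end, 2 fell and 0 rose, against 9.65% and 7.4% of all genes. Their median log2 difference was -0.10, and at an unadjusted p under 0.05 limma gave 3 lower and 1 higher (17.4% and 13.9% of all genes). Dcps, the scavenger enzyme that hydrolyses the cap left after the exosome has degraded a messenger RNA, fell 2.06-fold, at 463, 503 and 336 on siSpt6 arrays and 874, 883 and 889.8 on siControl arrays (limma adjusted p = 0.00859). Lsm3, part of the Lsm rings that bind decaying messenger RNA and U6 RNA, fell 1.91-fold, at 894, 1094 and 958 on siSpt6 arrays against 1855, 1934 and 1810.2 on siControl arrays (limma adjusted p = 0.00449). For Dcps and Lsm3 the groups were far apart.

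Of 15 measured genes of deadenylation, 2 rose and 0 fell, against 7.4% higher and 9.65% lower over all genes. Their median log2 difference was 0.12, and at an unadjusted p under 0.05 limma gave 1 lower and 4 higher (17.4% and 13.9% of all genes). The 2 that rose were the antiproliferative adaptors Tob1 and Tob2, which recruit the CCR4-NOT deadenylase. Tob1 rose 2.07-fold, at 433, 403 and 395 on siSpt6 arrays and 212, 202 and 182 on siControl arrays (limma adjusted p = 0.00262). Tob2 rose 1.59-fold, at 42.4, 36.9 and 35.5 on siSpt6 arrays against 21.8, 23.3 and 27.3 on siControl arrays (limma adjusted p = 0.0207), a call lost without siSpt6 replicate 1 or 2 or siControl replicate 1 or 2 (limma adjusted p up to 0.0679). Of 7 measured genes of nonsense-mediated decay 0 passed in either direction by limma, against 9.65% lower and 7.4% higher over all genes. At an unadjusted p under 0.05 limma gave 2 lower and 0 higher (17.4% and 13.9% of all genes), and the median log2 difference was -0.18. Whether the exosome list differs from these lists was not tested.

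Among 5 measured genes of proteins known to work with AID, 2 fell and 0 rose, against 9.65% and 7.4% of all genes. Their median log2 difference was -0.42, and at an unadjusted p under 0.05 limma gave 3 lower and 0 higher (17.4% and 13.9% of all genes). Nedd4, a ubiquitin ligase linked in B cells to the loading of the exosome where AID acts, read 1422, 1464 and 1493 on siSpt6 arrays, against 2086, 1831 and 2127 on siControl arrays, a 1.38-fold fall (limma adjusted p = 0.0388). Rpa1, the large subunit of the single-strand DNA binding protein RPA, read 440.0, 425 and 445 on siSpt6 arrays, against 604, 565 and 602 on siControl arrays, a 1.35-fold fall (limma adjusted p = 0.0363). The groups were apart for both genes, but each call ended when any single array was left out (limma adjusted p at most 0.111 for Nedd4 and 0.105 for Rpa1). After quantile normalization the limma adjusted p was 0.373 for Nedd4 and 0.162 for Rpa1.

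The median over the 9 subunits was -0.66 as deposited, -0.44 after quantile normalization and -0.45 after cyclic loess, and Exosc1, Exosc2, Exosc5 and Exosc7 were the subunits called lower after either. No subunit changed the sign of its difference under any of the 14 other choices. Bright or complete probes only, trend and robust eBayes, the replicate block and averaged probes could not change it, with 1 complete probe per subunit. For the 7 subunits whose siSpt6 arrays all read below the siControl arrays, the pseudocount or leaving out 1 array could not change it either. For these 7 only quantile and cyclic loess normalization could have changed the sign.

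**Figure D5:**
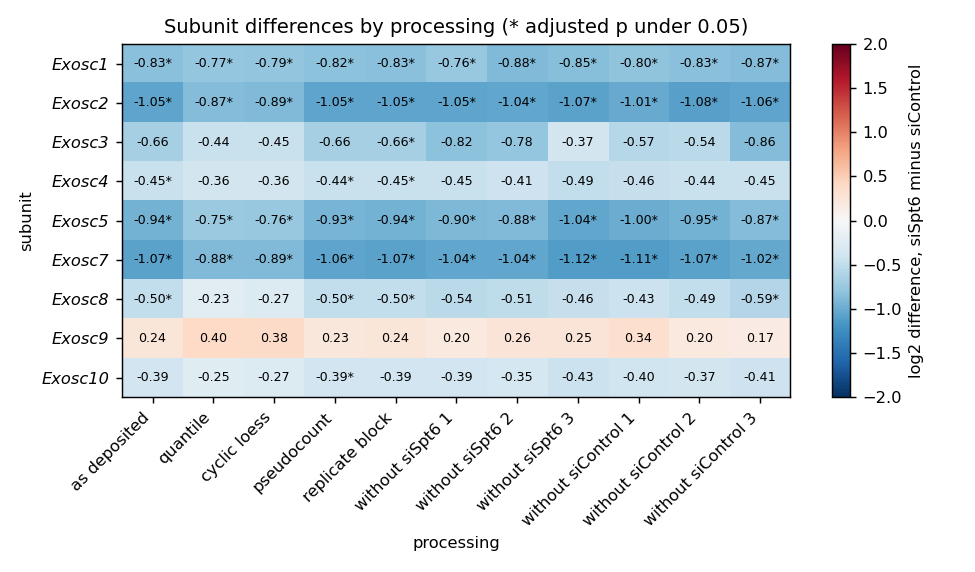
Log2 difference, siSpt6 minus siControl (colour and printed value), of each exosome subunit (y axis) under 11 ways of processing (x axis), with an asterisk where the limma adjusted p was under 0.05. Exosc1, Exosc2, Exosc5 and Exosc7 carry an asterisk in every column, and Exosc9 is above 0 in every column.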

How the data were processed

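Per the labels' protocols, total RNA was extracted with an RNeasy kit, amplified to amino allyl RNA, coupled to Cy5 and fragmented by the TORAY protocol. The authors deposited intensity values on a linear scale, 1 column per array. How background was corrected, how arrays were normalized and why values are blank is not stated in the labels. Array medians were 29.97 to 30.0 and 4.69% to 8.29% of 23473 probes were blank. The bright end differed by group: the 90th percentile of intensity was 504.7 to 536.8 on siSpt6 arrays and 574.9 to 594.0 on siControl arrays. The part of this difference in the subunit calls was not tested. Array correlations were 0.988 to 0.991 within and 0.975 to 0.981 between groups (Pearson's r, log2, across probes, which are not independent replicates).

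Symbols came from the platform's annotation and were updated through RefSeq names (GRCm38.p6, names only): 12622 probes had a current symbol, 3947 an older one, and 6842 of the probes had none. A gene's brightest probe was used. Values were log2-transformed without a pseudocount. Probes with a value on at least 2 arrays per group were tested with limma 3.58.1 (lmFit, eBayes, group as the only term, two-sided) in R 4.3.3, with Benjamini-Hochberg adjustment over all tested probes. Folds compare geometric means. Within-array ratios used exact permutation tests (scipy 1.17.1). The scripts were tested on simulated data. No set test was run.

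Members and gene lists were chosen with earlier results of these data known. All subunits, the nucleases, Mphosph6, C1d and Mtrex are named whatever their test, and up to 2 higher and 2 lower called genes of each other list. Alternatives were quantile and cyclic loess normalization, probes above the median level, probes with all 6 values, adding 2.66 before the log (a pseudocount at the 10th percentile), trend and robust eBayes, the replicate block, each array left out and the mean of a gene's probes. That mean was of log2 differences and was not tested itself. The smallest adjusted p of the gene's probes was taken with it.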

Additional observations from a re-analysis of the deposited data

How the results depend on the processing

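The count of lower exosome subunits was 6 as reported, 4 after quantile and cyclic loess normalization, 4 to 5 without 1 array, and 7 with bright probes only, complete probes only, a pseudocount, trend and robust eBayes, or the replicate block. The share of all tested genes called lower moved too, from 9.65% as reported to 7.15% after quantile normalization, 8.03% after cyclic loess, 5.42% to 7.39% without 1 array, 23.5% with bright probes only, 10.9% with complete probes only, 11.6% with a pseudocount, 12.9% with trend and robust eBayes and 9.74% with the replicate block, and the counts here are to be read against it. The lists' smaller counts moved more. The nuclease and cofactor list had 3 lower genes as reported, but 1 with either quantile or cyclic loess values, 6 with bright probes only, 5 with a pseudocount, 6 with trend and robust eBayes, and 1 to 2 without 1 array. Its higher genes numbered 0 as reported, 1 after quantile normalization, cyclic loess or trend and robust eBayes, and 2 with bright probes only. With averaged probes 1 gene, Zcchc7, counted as higher, through the smallest adjusted p of its probes. That p came from its dimmer probe (limma adjusted p = 0.0476), while its brightest probe did not pass (limma adjusted p = 0.244). The other decay lists and AID partners had 4 lower and 2 higher genes as reported. Lower genes numbered 2 after quantile normalization and cyclic loess, 7 with bright probes only and with trend and robust eBayes, and 2 without any 1 array. Higher genes numbered 4 after quantile normalization and cyclic loess, and 1 to 2 without 1 array. Leaving out 1 array gave 2099 to 2522 changed probes against 3525 in the full set, and 1052 to 1421 lower against 1922, with fewer arrays to test on. Supt6 passed the threshold after cyclic loess (log2 difference -0.42, limma adjusted p = 0.0491). The ratio of Dis3 over Dis3l differed by -1.33 after cyclic loess, and C1d, at 0.05 as reported, ranged from -0.08 to 0.16 without 1 array, below 0 without siSpt6 replicate 1 (-0.06) or siControl replicate 3 (-0.08). The share of changed probes that were higher was 45.5% as deposited, 57.3% after quantile normalization and 53.6% after cyclic loess. The cause of these changes was not tested.

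The groups share replicate numbers, but nothing in the labels ties samples of 1 number together. Deviations from the group means correlated at 0.351, 0.076 and 0.262 for numbers 1, 2 and 3, and each array correlated best with its own number, a hint from the data only. With the replicate block Exosc3 passed the threshold at the same difference of -0.66 (limma adjusted p = 0.0305), Tob2 and Nedd4 missed it (limma adjusted p = 0.0516 and 0.0520), and the other decay lists had 1 higher gene. Dim probes have no stated detection limit.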
